A study of Homo sapiens with 21 samples.

Results

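HNRNPK, a nuclear and cytoplasmic protein that binds RNA through its KH domains, was mapped on RNA by PAR-CLIP in MDA-MB-231, a cell line of triple-negative breast cancer. Clusters are stretches covered by overlapping crosslinked reads, and those that the deposited annotation placed in coding sequence are described here. These coding clusters numbered 20506 of 778762 in all, with 5667 in the parental cytoplasmic library, 8508 in the *KRT19* KO cytoplasmic library, 3299 in the parental nuclear library and 3032 in the *KRT19* KO nuclear library. The *KRT19* KO cells were made from the same line with CRISPR/Cas9, and the sources used here do not say whether they are 1 clone. Both cell lines received 4-thiouridine (4SU) and ultraviolet light, were split into cytoplasm and nucleus with NP-40 detergent, and gave HNRNPK by immunoprecipitation. Each condition has 1 library, so no comparison between cell lines or between fractions has a replicate check, and none was tested. Another 17 samples, of RNA-seq, were not used.

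The KH domains of HNRNPK hold short single-stranded stretches rich in cytosine, a preference shared by its poly-C binding relatives PCBP1 and PCBP2. In PAR-CLIP, crosslinked 4SU pairs like C during reverse transcription, so that T-to-C changes in the reads mark the contact, and RNase T1, used here to trim the bound RNA, cuts after G. Coding sequence is where ribosomes travel, and most sites known for HNRNPK lie outside it, in introns and 3'UTRs, where the protein acts in splicing and in mRNA stability and translation.

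*KRT19*, the gene deleted in the KO cells, had no coding cluster in any library, and its clusters of all classes held 7 reads in the parental cytoplasm, 5 in that of *KRT19* KO cells and 0 in the nuclei, which is too few to check the genotype. Reads in clusters numbered 3252800 to 6216226 per library. Bound reads of the mesenchymal genes *CD44*, *AXL*, *CAV1* and *VIM* were found in all libraries, between 69 and 2578, while of the epithelial and luminal genes *CDH1* had 0 to 6, *GATA3* 0 to 15, *EPCAM* 0 to 41 and *ESR1* 26 to 77, the last near the lowest value of *VIM*. Of the nuclear RNAs, *NEAT1* and *KCNQ1OT1* had a higher RPM (reads scaled to an equal total of cluster reads per library) in the nucleus of both cell lines, whereas *MALAT1* went against the labels, with a higher RPM in the cytoplasm of both, 1229 against 888 in parental and 842 against 548 in *KRT19* KO cells. The part of nuclear RNA in the cytoplasmic values was not tested.

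The parental cytoplasmic library stood apart from the others. It held 111 stretches of the genome, with a median of 233 kb, in which at least 10 successive clusters of any class came from it and none from the other 3 libraries. The other libraries held 3 to 7 such stretches each, with 1 or 2 coding clusters. In the parental cytoplasm these stretches contained 265 coding clusters of 135 genes, or 4.68% of its coding clusters and 5.36% of its coding reads. Their cause was not tested, and values that move without them are given both ways.

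To show what the clusters look like, the stretches shared by all 4 libraries are given for nuclear genome loci with the highest RPM in the library where they were lowest. Where the shared stretch was longer than 30 nt, the 30 nt with the most C are shown, and both this and the leaving out of mitochondrial loci were chosen after the values were seen. All are read 5′ to 3′ on the transcribed strand of GRCh37, and capitals mark runs of 3 or more C.

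ATF4: caccttcttacaacctcttCCCCtttCCCC

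PHLDA1: cacatccacatccacactctcatcctcact

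SETD5: cttCCCCtcacaaaaaattctCCCCatctc

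CCNT1: tttctccttCCCttcacttcctac

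NACA: CCCatCCCtcaagggggCCCCCactCCCCC

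SF3A2: CCCCaggggtccatcctCCCCCatcagcgg

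ACSL3: atcactttatactattttaacatacattcc

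NCOA6: cttctaattCCCtaaacttacctcacag

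The *ATF4* stretch, at chr22:39918022-39918051 on the plus strand, lies in coding exon 2 of 2 of this stress-response transcription factor, around position 486 of 1053 of the coding sequence. That of *PHLDA1*, at chr12:76424432-76424461 on the minus strand, and that of *SETD5*, at chr3:9515095-9515124 on the plus strand, lie in coding exon 1 of 1 and coding exon 18 of 21. The *CCNT1* stretch at chr12:49087171-49087194, minus strand, is in coding exon 9 of 9 of cyclin T1, a subunit of the elongation factor P-TEFb. *NACA* was bound at chr12:57112066-57112095, minus strand, in coding exon 2 of 8 of a canonical coding sequence of 6234 nt. Whether these cells make that transcript was not tested. *SF3A2*, a subunit of the U2 snRNP, was bound at chr19:2248232-2248261, plus strand, in coding exon 8 of 8. *ACSL3*, an acyl-CoA synthetase, was bound at chr2:223773580-223773609, plus strand, in coding exon 1 of 14, and *NCOA6*, a nuclear receptor coactivator, at chr20:33329405-33329432, minus strand, in coding exon 9 of 13. The sequences of *PHLDA1* and *ACSL3* hold single and paired C only, while the others hold a run of C. G is present in those of *NACA*, with 5, *SF3A2*, with 7, and *NCOA6*, and absent from the others.

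Reads at these loci differed between libraries by locus. The *ATF4* locus held 1801 and 2682 reads in the parental and *KRT19* KO cytoplasm and 252 and 241 in the nuclei. At *PHLDA1* the *KRT19* KO cytoplasm stood out, with 2069 reads against 340, 209 and 203 in the parental cytoplasm, parental nucleus and *KRT19* KO nucleus, and at *SF3A2* this library was again the highest, with 1231 against 192, 239 and 287. The *NACA* locus instead held more reads in the nuclei, 480 and 437, than in the cytoplasm, 328 and 231, although the cytoplasmic libraries held more reads in all.

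The first comparison asked how much of HNRNPK binding falls in coding sequence. Coding clusters made up 2.81% (95% Wilson interval 2.74 to 2.88%) of clusters in the parental cytoplasm and 4.79% (4.69 to 4.89%) in the *KRT19* KO cytoplasm, against 1.65% (1.59 to 1.70%) and 1.52% (1.47 to 1.58%) in the nuclei. The share was thus higher in the cytoplasm of both cell lines. Wilson intervals cover counting error only, and copies of 1 molecule made by PCR are not independent reads. For comparison, 3'UTR clusters made up 10.7% and 16.02% of the cytoplasmic libraries and 3.86% and 4.05% of the nuclear ones, and intronic clusters 49.7 to 67.3%. Coding clusters were assigned to 3314, 4102, 2173 and 1987 genes in the order parental cytoplasm, *KRT19* KO cytoplasm, parental nucleus and *KRT19* KO nucleus.

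By reads the order was another one. Coding clusters held 126088 reads or 2.27% in the parental cytoplasm, 365179 or 5.87% in the *KRT19* KO cytoplasm, 82940 or 2.34% in the parental nucleus and 142163 or 4.37% in the *KRT19* KO nucleus. The mitochondrial genome supplied 11.7%, 23.7%, 35.0% and 64.3% of these reads from only 25, 26, 31 and 52 clusters. Without it the coding share of reads was 2.02%, 4.70%, 1.54% and 1.62%, which is again higher in the cytoplasm of both cell lines.

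**Figure D1:**
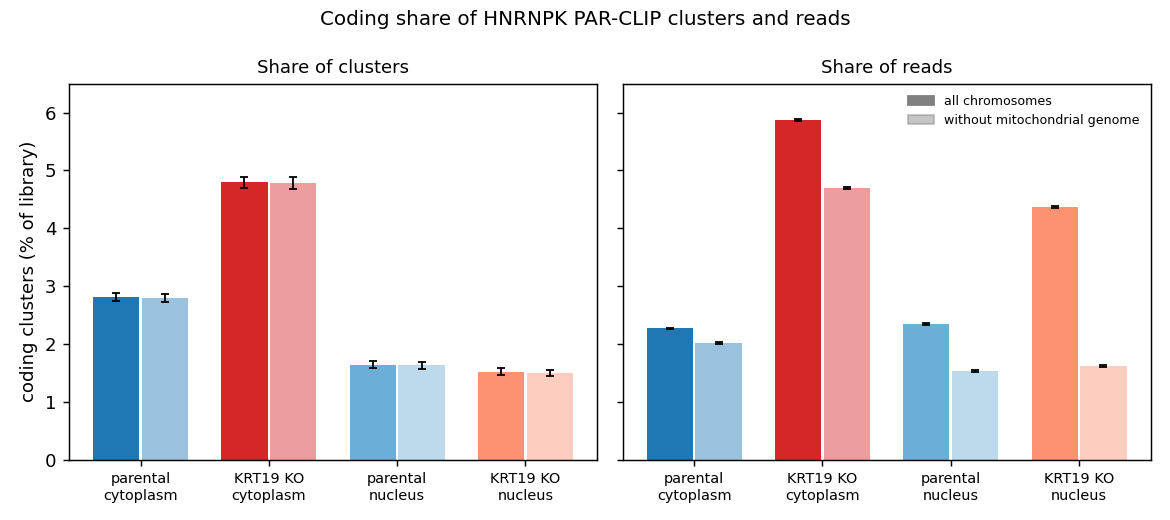
Share of clusters (left) and of reads (right) that were coding, in percent of each library, for all chromosomes (dark bars) and without the mitochondrial genome (light bars), with 95% Wilson intervals. The *KRT19* KO cytoplasm is highest in both panels, and the 4.37% of reads in the *KRT19* KO nucleus becomes 1.62% without the mitochondrial genome.

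A typical coding cluster was small and thinly covered. The median was 8 reads in the parental cytoplasm and 10 in each of the other libraries, against 12 to 19 in 3'UTR clusters, and 25 to 29 nt long. In the order of the libraries above, 32.8%, 12.5%, 42.7% and 39.2% of coding clusters had 1 unique read by the deposited counts. For 3'UTR clusters this was 14.1%, 4.89%, 30.5% and 30.5%. Unique reads were 32.6%, 46.5%, 21.1% and 20.2% of coding reads, so the reads of a cluster may not be independent. Clusters of at least 100 reads made up 3.19% of coding clusters in the parental cytoplasm, 5.76% in the *KRT19* KO cytoplasm, 2.21% in the parental nucleus and 2.34% in the *KRT19* KO nucleus, where 3'UTR clusters reached 14.4%, 17.5%, 3.54% and 2.33%. The median of reads was lower in coding than in 3'UTR clusters in 4 of 4 libraries, with a mean difference of -5.5 reads (SD 3.51, n = 4, exact paired permutation test, two-sided p = 0.125, adjusted p = 0.179). With 4 libraries the exact permutation test cannot give a p below 0.125, so none of the 20 comparisons of this kind could reach the usual threshold.

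The label was checked against the annotation. Each of the coding cluster sequences on chromosomes of the reference was equal to GRCh37 at its position, with 3 clusters of the *KRT19* KO cytoplasm on other contigs. The middle of the cluster lay in the canonical coding sequence of GENCODE for 98.5%, 98.3%, 97.9% and 97.3% of the clusters, and in the coding sequence of any transcript for 99.3 to 99.6%. A prominent exception was the cluster of *HMGA1*, a chromatin protein, at chr6:34213226-34213276 on the plus strand, which held 8869 reads in the *KRT19* KO cytoplasm and lies in the 3'UTR of the canonical transcript.

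Coding clusters were richer in C than the coding sequences that hold them. C made up 29.3%, 31.5%, 32.7% and 35.4% of the bases in the 4 libraries, while the complete coding sequences of the same genes held 24.1%, 24.7%, 25.3% and 25.6%. G was depleted, with 12.3 to 15.3% in the clusters and 24.5 to 24.9% in the same coding sequences. U was 24.7 to 26.8% in the clusters and 22.4 to 23.1% in the coding sequences, and each cluster must hold U to show a conversion. All 4 libraries had these directions. Both RNase T1, which cuts after G, and the protein shape the ends and content of clusters, and their parts cannot be told apart here.

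Set beside the other classes, coding clusters had more C, more G and less U. The base content of whole 3'UTRs and introns was not measured, so its part in these differences was not tested. The C share was above that of 3'UTR clusters by 5.95 percentage points (SD 1.145) and above that of intronic clusters by 5.24 points (SD 1.40), in 4 of 4 libraries each. Their G share was higher by 4.95 points (SD 0.73) than in 3'UTR clusters and by 8.01 points (SD 1.74) than in intronic clusters, and the U share was lower, with differences of -9.54 points (SD 0.37) and -9.77 points (SD 0.33), again in 4 of 4 libraries (exact paired permutation test, two-sided, n = 4, p = 0.125 and adjusted p = 0.179 for each of the 6).

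**Figure D2:**
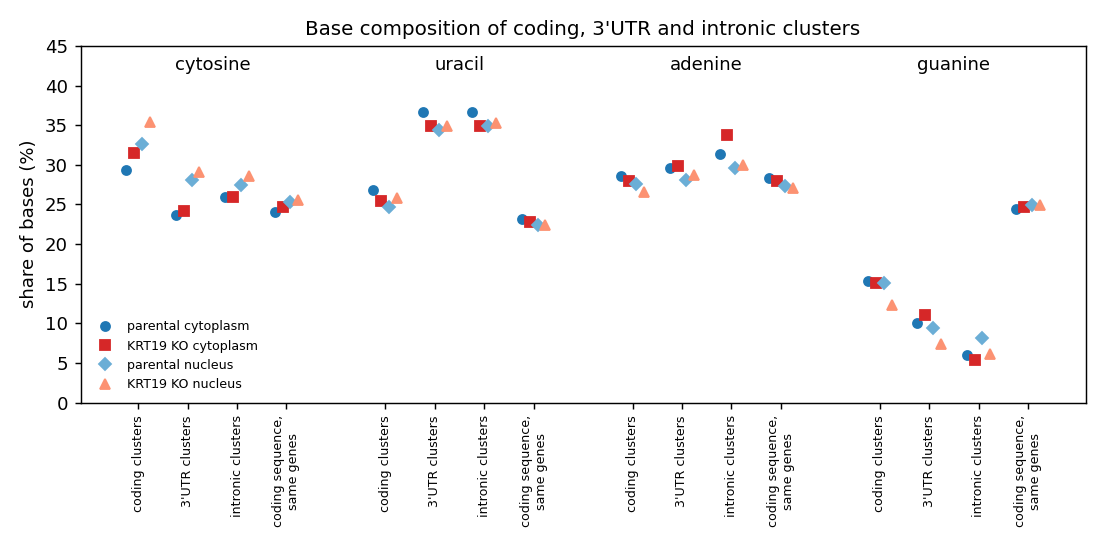
Share of cytosine, uracil, adenine and guanine (percent of bases) in coding, 3'UTR and intronic clusters and in the complete coding sequences of the genes with coding clusters, with 1 point per library. Coding clusters hold 29.3 to 35.4% cytosine, above the 24.1 to 25.6% of the coding sequences, and their guanine of 12.3 to 15.3% lies between that of the other clusters and that of the coding sequences.

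Runs of C were frequent. CCC occurred in 39.9% (38.6 to 41.2%) of coding clusters in the parental cytoplasm, 45.1% (43.997 to 46.1%) in the *KRT19* KO cytoplasm, 49.5% (47.8 to 51.2%) in the parental nucleus and 51.7% (49.9 to 53.5%) in the *KRT19* KO nucleus. In both cell lines the nuclear share was above the cytoplasmic one. Against 3'UTR clusters the share was higher by 5.64 points (SD 2.21) in 4 of 4 libraries, and against intronic clusters by 3.74 points (SD 3.35) in 3 of 4, with p = 0.125 and p = 0.25 in the exact permutation test (adjusted p = 0.179 and 0.312). Here too, the part of the base content of whole 3'UTRs and introns was not tested.

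The words were also counted on the sense strand in all windows of the same length in the canonical coding sequences of the same genes. CCC was in 28.2 to 31.8% of the windows, and the clusters exceeded this 1.41 to 1.76 times. The gap was wider for UCCC, which contains CCC, with 22.3%, 25.6%, 29.7% and 30.1% of clusters and ratios of 2.25, 2.46, 2.64 and 3.05 in the order of the libraries above. For UUCC the ratios were 2.24, 2.24, 2.32 and 2.79, and for CUCC 1.92, 2.13, 2.19 and 2.54. CCCC was less raised, at 1.71 to 2.31 times. The words with U were thus raised more than CCC and, in each library, more than CCCC. Each cluster must hold U to show a conversion and the windows need not, so these ratios cannot show a preference for C next to U.

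The reading frame and the encoded amino acids were examined next, since coding sequence restricts which words can occur. Runs of CCC began at each of the 3 codon positions about equally, between 32.9 and 33.7% of the time in all libraries, while in the complete coding sequences position 2 was somewhat favoured, with 35.6 to 36.1%. Among complete codons inside clusters, UCC for serine was the most raised over the same coding sequences, with ratios of 2.15, 2.204, 2.34 and 2.73 in the parental cytoplasm, *KRT19* KO cytoplasm, parental nucleus and *KRT19* KO nucleus. CCA for proline followed in the mean over libraries, with 1.76, 1.82, 1.83 and 2.25, and UUC for phenylalanine, with 1.86, 1.81, 1.79 and 2.11. In the mean over libraries CGA for arginine had the lowest ratio, at 0.19 to 0.411, although GUA for valine was lower in the parental nucleus, at 0.303.

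By amino acid, proline codons were raised most, 1.58, 1.68, 1.74 and 2.01 times, then histidine, phenylalanine, isoleucine, tyrosine, threonine, asparagine and serine, each between 1.31 and 1.68 times. Leucine, lysine and glutamine were near 1, between 0.89 and 1.10. Codons of valine, arginine, methionine, aspartate, cysteine and glutamate, all of which contain G, were at 0.325 to 0.58. The order of the groups was shared by all libraries, and the *KRT19* KO nucleus had the most extreme values for proline and glutamate.

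**Figure D3:**
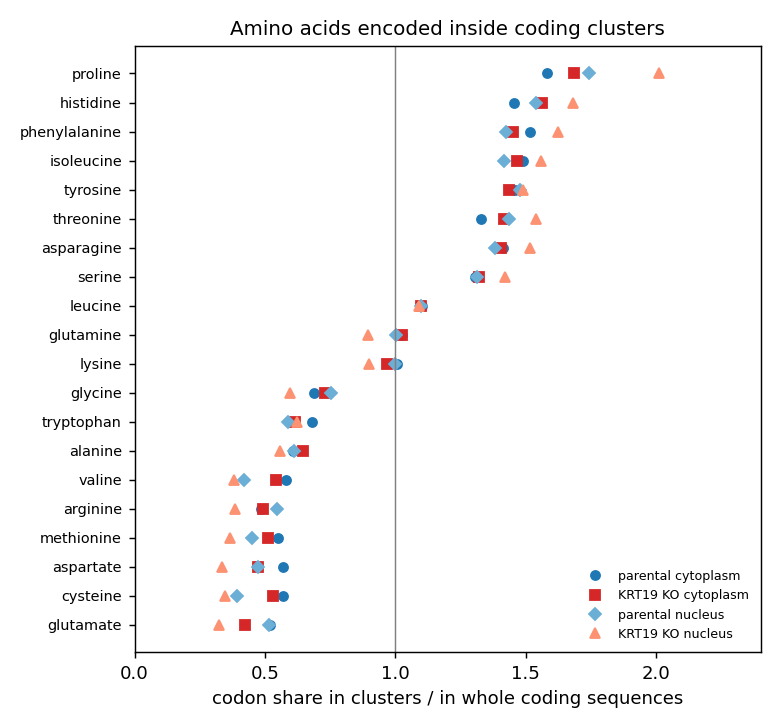
Share of the codons of each amino acid inside coding clusters divided by its share in the complete coding sequences of the same genes (horizontal axis, ratio), with 1 point per library and the grey line at 1. Proline lies highest at 1.58 to 2.01 and glutamate is at 0.325 to 0.52.

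Clusters were spread along the coding sequence with a slight lean to its end in the cytoplasm. With the coding sequence cut into 3 equal parts, the first held 28.3% (27.1 to 29.5%) of the clusters of the parental cytoplasm and 28.4% (27.5 to 29.4%) of those of the *KRT19* KO cytoplasm, and the last 36.4% (35.1 to 37.7%) and 36.8% (35.8 to 37.8%). In the nuclei the parts were more even, with 32.4% and 31.8% in the first and 32.9% and 34.5% in the last. Only 2.53 to 3.19% of the clusters had their middle within 100 nt of the start codon, where 4.45 to 5.99% of all positions of the same coding sequences lie. Clusters that span a start or stop codon carry labels of their own in the files, 14 to 62 and 66 to 279 per library, and are not counted among the coding clusters, which takes sites away from both ends. Coding exons of at least 1000 nt held 19.8%, 22.9%, 23.4% and 24.1% of the clusters, and 17.5%, 20.4%, 19.8% and 20.03% of the coding sequence of the same genes. Within 15 nt of a coding exon edge lay 3.40%, 3.47%, 3.81% and 4.93% of cluster middles, against 17.7%, 16.5%, 16.8% and 16.8% of that sequence. Clusters that span a border of coding sequence and intron carry labels of their own, 44 to 210 and 129 to 201 per library. They are not counted among the coding clusters. With a median length of 25 to 29 nt, most clusters centred this close to an edge would cross it. This comparison therefore cannot show that binding avoids exon edges. Long exons have fewer edges for their length, and the part of this in their share was not tested.

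T-to-C reads made up 63.9% of coding reads in the parental cytoplasm, 55.3% in the *KRT19* KO cytoplasm, 63.7% in the parental nucleus and 52.2% in the *KRT19* KO nucleus. The mitochondrial clusters were lower, at 39.1 to 42.3%. Without them the shares were 66.8%, 60.3%, 76.1% and 75.4%, so that both nuclei exceeded both cytoplasms. Clusters are called on conversions, so the share is taken within called clusters and may be high in thin ones. Without the mitochondrial genome 32.9%, 12.6%, 43.1% and 39.9% of coding clusters had 1 unique read. The part of this in the contrasts of fractions and of classes was not tested. On all chromosomes coding clusters differed from 3'UTR clusters by -2.18 points (SD 11.4, higher in 2 of 4 libraries, exact permutation p = 0.75, adjusted p = 0.75) and from intronic clusters by -14.9 points (SD 7.67, lower in 4 of 4, exact permutation p = 0.125, adjusted p = 0.179). Without the mitochondrial genome the first direction turned, and coding clusters were above 3'UTR clusters by 8.72 points (SD 3.80, 4 of 4 libraries, exact permutation p = 0.125, adjusted p = 0.179) and below intronic clusters in the mean, with a difference of -4.03 points (SD 4.69, 3 of 4 libraries, exact permutation p = 0.25, adjusted p = 0.312). Reads that end in G made up 36.4 to 41.8% of coding reads and 27.4 to 32.5% without the mitochondrial genome. With it, they exceeded those of 3'UTR clusters by 16.5 points (SD 2.88, 4 of 4 libraries, exact permutation p = 0.125, adjusted p = 0.179). Without it, coding clusters had 32.3%, 32.5%, 29.02% and 27.4% in the order of the libraries and 3'UTR clusters 23.7%, 23.9%, 23.6% and 21.6%, a smaller gap of the same direction.

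Few coding clusters recurred. Of those in the parental cytoplasm, 29.1% (28.0 to 30.3%) shared 1 nt or more, strand included, with a cluster of any class in the *KRT19* KO cytoplasm, and 19.2% (18.4 to 20.1%) did in the other direction. Between the nuclei the shares were 17.1% and 18.7%. Across fractions 11.5% of parental and 11.1% of *KRT19* KO cytoplasmic clusters were met in the nucleus of the same cells, and 19.7% and 31.8% of nuclear clusters in the cytoplasm. Where a coding cluster was met, its partner was labelled coding too in 98.8 to 99.6% of cases. Coding clusters recurred less than 3'UTR clusters between cell lines, with a difference of -13.4 points (SD 5.28, 4 of 4 libraries, exact permutation p = 0.125, adjusted p = 0.179). The 3'UTR clusters also held more reads, and at like depth the gap was smaller or turned in places. At 20 to 49 reads in the parental cytoplasm, 62.0% of coding and 59.6% of 3'UTR clusters recurred, and at 100 or more reads in the parental nucleus 74.0% and 66.4%. At 5 to 9 reads the coding share was the lower one in each library, for example 14.9% against 22.1% in the parental cytoplasm.

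Recurrence followed depth. For parental cytoplasmic clusters of 5 to 9 reads, 14.9% overlapped a cluster of the *KRT19* KO cytoplasm, and this share was 33.9% at 10 to 19 reads, 62.0% at 20 to 49, 74.0% at 50 to 99 and 76.2% (69.5 to 81.9%) at 100 or more. At 100 or more reads the shares of the other libraries were 71.2% in the *KRT19* KO cytoplasm, 74.0% in the parental nucleus and 57.7% in the *KRT19* KO nucleus, from 490, 73 and 71 clusters. No listed cluster had fewer than 5 reads, so a site missing from a library may lie under this limit, and depth and recurrence cannot be told apart for thin clusters.

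**Figure D4:**
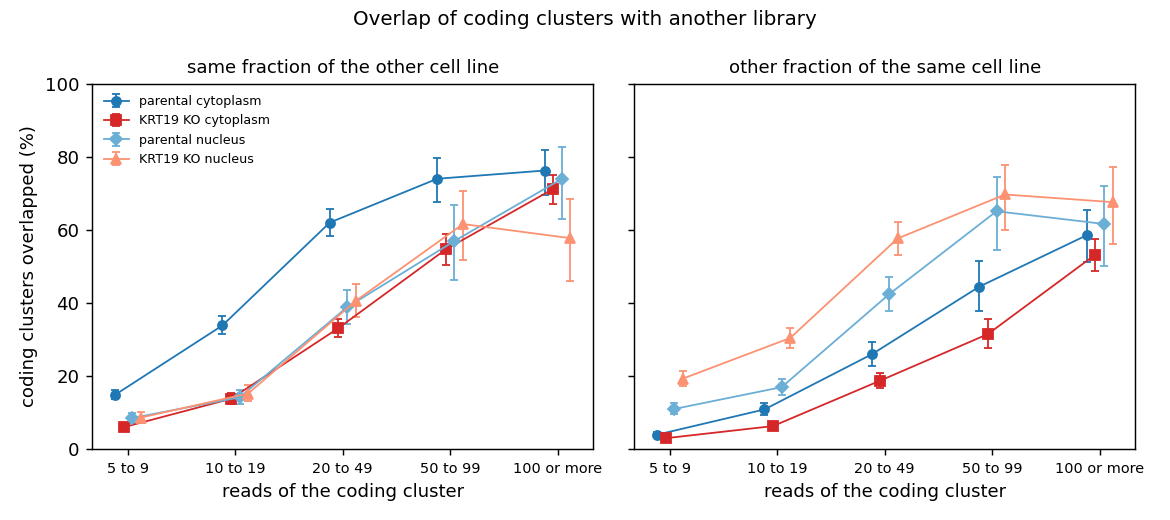
Share of coding clusters (percent) that overlapped a cluster of the same fraction in the other cell line (left) or of the other fraction in the same cell line (right), by the reads of the cluster, with 95% Wilson intervals. From 5 to 9 reads to 100 or more, the share in the parental cytoplasm goes from 14.9% to 76.2% in the left panel.

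Merged where they overlapped, the coding clusters formed 16391 loci. Of these, 13392 or 81.7% were found in 1 library, 2121 in 2, 681 in 3 and 197 in all 4. Those in all 4 lay in 177 genes, with 4 loci on the mitochondrial genome. The parental cytoplasm alone held 3667 loci, the *KRT19* KO cytoplasm alone 6008, the parental nucleus alone 1992 and the *KRT19* KO nucleus alone 1725. Both cytoplasms and no nucleus shared 969 loci, and both nuclei and no cytoplasm 146.

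Loci in all 4 libraries were poorer in G and richer in CCC than those in 1. Their clusters held 6.18 to 7.82% G, against 15.9 to 18.8% in loci of 1 library, and 37.6 to 38.7% C, against 26.9 to 33.7%. CCC was in 63.8 to 70.6% of them, against 34.0 to 47.4%. Their median read count was 27 to 112.5 per cluster in place of 7 to 9, so composition and depth moved together. Clusters of loci shared by both nuclei only held CCC in 65.2% (57.1 to 72.6%) and 61.0% (52.8 to 68.7%) of cases, and those shared by both cytoplasms only in 42.9% (39.8 to 46.0%) and 44.1% (41.0 to 47.2%).

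To show this contrast, the 4 loci of each pattern with the highest RPM in whichever of their libraries held less are set out, with the same rule for capitals and for the 30 nt shown. The first 4 were found in both nuclei only, and the last 4 in both cytoplasms only, and all were chosen after the values were seen.

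UBN2: aacttatttctaaatccaaCCCaactCCCa

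PRRC2C: atcatcttCCCaaatacctgCCCaaccatc

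KMT2D: cctggttCCCCaaaactCCCCtccttCCCa

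SRRM2: ctcagggtctatttcaccataCCCCaaag

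SLC38A1: tcttccttcatctctttatttaaaaatcac

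NARG2: taatatatattaattcaccacttCCCCaaa

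ZNF106: caaaaaacaccaaaacaaattttttttCCC

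PTP4A1: cttattacacacaatccaaccaatgcgacc

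The nuclear stretches lie at chr7:138968872-138968901, plus strand, in *UBN2*, at chr1:171494032-171494061, plus strand, in *PRRC2C*, at chr12:49444249-49444278, minus strand, in *KMT2D*, a histone methyltransferase, and at chr16:2813496-2813524, plus strand, in *SRRM2*, a protein of nuclear speckles. The cytoplasmic ones lie at chr12:46591540-46591569, minus strand, in the amino acid transporter *SLC38A1*, at chr15:60745936-60745965, minus strand, in *NARG2*, at chr15:42742954-42742983, minus strand, in *ZNF106*, and at chr6:64286843-64286872, plus strand, in the phosphatase *PTP4A1*. The *KMT2D* locus held 169 parental and 87 *KRT19* KO nuclear reads, and that of *PRRC2C* 137 and 202. The *SLC38A1* locus held 848 parental and 577 *KRT19* KO cytoplasmic reads, and that of *NARG2* 441 and 853.

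A coding cluster was found in 6115 genes in at least 1 library and in 646 genes in all 4. Most genes had a single one, with 64.7% of the genes in the parental cytoplasm, 55.4% in the *KRT19* KO cytoplasm and 71.8% and 71.7% in the nuclei. Of the genes with a coding cluster, 69.3% and 73.2% in the cytoplasmic and 47.4% and 49.6% in the nuclear libraries also had a 3'UTR cluster, and 83.1 to 90.8% an intronic one. The genes had long coding sequences, with medians of 1754 to 2310 nt among libraries, against 1281 nt over all canonical transcripts.

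The genes with the most coding clusters were large. *KMT2D*, with a coding sequence of 16611 nt, had 18, 33, 30 and 18 clusters in the parental cytoplasm, *KRT19* KO cytoplasm, parental nucleus and *KRT19* KO nucleus, and 610, 1654, 1352 and 379 coding reads. *SRRM2* had 15, 26, 32 and 20 clusters and *NACA* 21, 21, 25 and 16, and in both the parental nucleus had the highest number of the libraries. The canonical coding sequence of *NACA* has 6234 nt, and use of that transcript in these cells was not tested. *NACA* had no 3'UTR cluster in any library. *DST*, a cytoskeletal linker of 23454 coding nt, had 13, 19, 9 and 9 clusters, *SRCAP*, a chromatin remodeller, 6, 18, 13 and 12, *PRRC2C* 13, 17, 6 and 7, and *NCOA6* 8, 15, 8 and 11. *AHNAK*, a giant scaffold protein with 17670 coding nt, had 13, 15 and 12 clusters in the first 3 libraries and 1 in the *KRT19* KO nucleus.

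By reads, mitochondrial genes came first. *MT-ND2*, a subunit of complex I, had no coding cluster in the parental cytoplasm, 67698 reads in the *KRT19* KO cytoplasm, 3788 in the parental nucleus and 42100 in the *KRT19* KO nucleus. A single cluster at chrM:4837-5007 held 65053 of the reads in the *KRT19* KO cytoplasm, or 17.8% of the coding reads of that library. *MT-ND1* had 47 and 134 reads in the cytoplasm and 11556 and 15783 in the nuclei, while *MT-ND4* was even, with 8924, 10854, 9434 and 6312. Of the 13 mitochondrial protein genes, 11 had a coding cluster and 9 had one in all 4 libraries. The nuclear genome holds copies of mitochondrial sequence, and reads of such copies and their source could be exchanged.

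Among genes of the nuclear genome, chosen for the most reads after the values were seen, *HMGA1* led with 247, 8971, 540 and 1343 reads in the order of the libraries. Of the 8971 reads, 8869 lay in the 1 cluster named above, in the 3'UTR of the canonical transcript. *EIF4G2*, a translation initiation factor, had 816 and 5368 reads in the cytoplasm against 54 and 106 in the nuclei. *ATF4* with 1833, 2800, 252 and 241 reads, *POLR2A*, the largest subunit of RNA polymerase II, with 1396, 1474, 337 and 495, and *ZEB2*, a transcription factor of epithelial-mesenchymal transition, with 770, 2766, 76 and 36, were likewise higher in the cytoplasm. *ASPM*, a spindle protein, had 832, 1922, 553 and 51 reads. *SF3A2* had 413, 1272, 558 and 519 and *NACA* 1205, 969, 1655 and 1064, with the highest value of *NACA* in the parental nucleus.

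*HNRNPK* had no coding cluster in the parental cytoplasm or either nucleus, and 2 clusters with 59 reads in the *KRT19* KO cytoplasm. The cluster with 52 of these reads lies at chr9:86585654-86585685, minus strand, in coding exon 13 of 15. Its 3'UTR clusters held 126, 207, 143 and 86 reads in the order of the libraries.

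The cytoplasmic libraries of both cell lines were compared gene by gene, in RPM of coding reads with 5 reads added, among genes with at least 50 coding reads in both together. Of 1370 genes, 416 were at least 4-fold higher in *KRT19* KO cells, or 30.4%, and 63 at least 4-fold lower, or 4.6%, with a median log2 ratio of 1.27. For 3'UTR reads 18.9% of 4788 genes were higher and 5.99% lower, with a median of 0.67, and for reads of all clusters 6.85% of 9378 genes were higher and 7.89% lower, with a median of -0.08. The shift to *KRT19* KO cells was thus present in both exonic classes and not over all clusters. These are single libraries, and no test was made. The scaling decides the split. Scaled to the coding reads of each library, 191 genes were higher and 137 lower.

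The coding ratio was also set beside the 3'UTR ratio of the same genes, which share the libraries. In 918 genes with at least 50 reads of each class, outside the stretches held by the parental cytoplasm alone, the median log2 ratio was 1.25 for coding and 0.69 for 3'UTR reads, and the coding ratio was the larger one in 565 genes, or 61.5%. At least 4-fold higher were 278 of these genes by coding reads and 178 by 3'UTR reads, with 67 in both. Locus by locus, 1231 of 1632 coding loci present in both cytoplasms had a higher RPM in *KRT19* KO cells, or 75.4%, with a median log2 ratio of 0.76, while between the nuclei this held for 311 of 558 loci, or 55.7%, with a median of 0.16. These ratios also rest on the scaling to all cluster reads.

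The largest differences in favour of *KRT19* KO cells came mainly from single clusters. *IRS1*, an adaptor of the insulin receptor, had 7 parental and 2888 *KRT19* KO coding reads in the cytoplasm, 14 and 35 in the nuclei, and a log2 ratio of 7.75, while its 3'UTR reads were 85 and 142. Of the 2888 reads, 2690 lay in 1 cluster at chr2:227661843-227661881, minus strand, in coding exon 1 of 1, around position 1593 of 3726. *TOR1AIP1*, a protein of the inner nuclear membrane, had no coding cluster in the parental cytoplasm and 1338 reads in the *KRT19* KO cytoplasm, 1320 of them in 1 cluster, with 216 and 94 in the nuclei, while its 3'UTR reads were 767 and 696. *GOLPH3*, a Golgi protein, had 0 and 1004 coding reads in the cytoplasms and 580 and 1061 in the 3'UTR. *MT-ND2* and *MT-ND4L*, the latter with 0 and 794 reads, complete the 5 largest differences in this direction. In *IRS1* and *TOR1AIP1* the coding and 3'UTR reads thus differed by unlike amounts between the same libraries. Both genes were chosen for their rise in coding reads, so this contrast partly follows from the choice.

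Of the 5 genes with the largest differences in favour of parental cells, *ATN1*, *TMEM97*, *KMT2A* and *PLP2* lie in stretches where only the parental cytoplasm had clusters. *ATN1* had 1303 coding reads and *KMT2A* 302 in that library and no cluster of any class in the other 3. Among the 63 lower genes, 24 had a cluster in such a stretch, against 1 of the 416 higher genes, and without them 39 genes were lower and 415 higher of 1339. The fifth, *CSTF1*, a polyadenylation factor, lies outside these stretches, with 315 and 0 coding reads in the cytoplasm and 69 and 0 in the nuclei. Its 3'UTR reads were 742 and 1725. The next outside the stretches, a choice made after the values were seen, were *MEF2A*, *GINM1*, *DSG2* and *ABHD13*, with 125 to 174 coding reads in parental cytoplasm and 0 in that of *KRT19* KO cells. The 3'UTR reads of these 4 genes were higher in the *KRT19* KO cytoplasm, for example 308 and 897 in *DSG2*, an adhesion protein of desmosomes. Over all genes compared by 3'UTR reads the median log2 ratio was 0.67 in the same direction. The genes named here were chosen for their fall in coding reads, so the contrast of both classes partly follows from the choice.

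**Figure D5:**
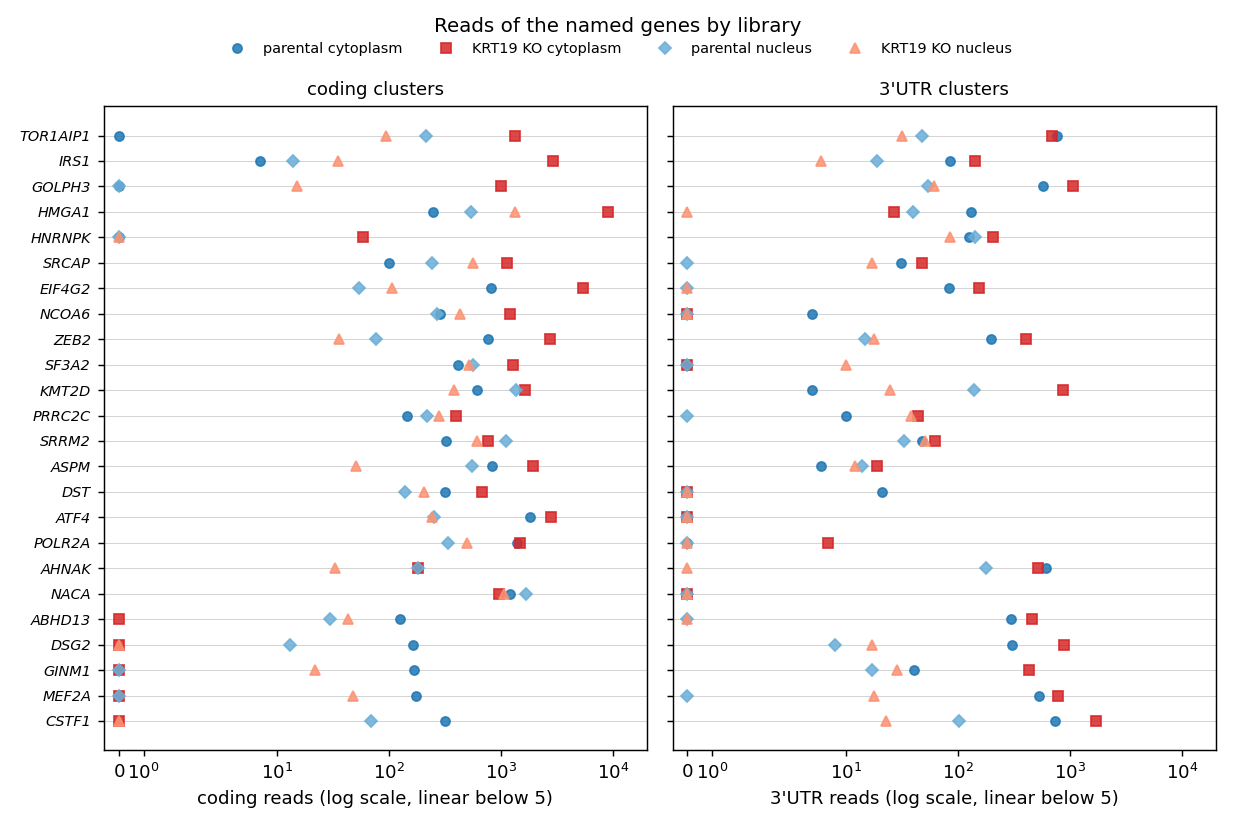
Coding reads (left) and 3'UTR reads (right) of the named genes of the nuclear genome outside the stretches held by 1 library, by library, on a logarithmic axis that is linear below 5 reads, sorted by the log2 ratio of coding reads between the cytoplasmic libraries. *IRS1* has 7 and 2888 coding reads but 85 and 142 3'UTR reads in the parental and *KRT19* KO cytoplasm, and *CSTF1* has 315 and 0 coding reads but 742 and 1725 3'UTR reads.

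Coding clusters were found in 3314 of 13388 genes with any cluster in the parental cytoplasm, 4102 of 12928 in the *KRT19* KO cytoplasm, 2173 of 13517 in the parental nucleus and 1987 of 13581 in the *KRT19* KO nucleus. The counts of the gene groups are read beside these, which are themselves higher in the cytoplasm, and no difference from them was tested. Groups defined by name count genes with a cluster of any class. Of 80 ribosomal protein genes, 17 had a coding cluster in parental cytoplasm and 24 in that of *KRT19* KO cells, and 1 and 0 in the nuclei. Of 29 replication-dependent histone genes, 12 and 11 had one in the cytoplasm and 1 in each nucleus. Heat shock chaperones had coding clusters in 7 and 8 of 11 genes in the cytoplasm and 2 in each nucleus. *HSP90AA1* had 317 and 596 coding reads in the cytoplasm and none in the nuclei, whereas *HSP90AB1* had 366, 1030, 147 and 88. Many genes of these groups have near-identical copies, as do *HMGA1* and *NACA*, so that their reads are uncertain.

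Translation factors, a list of 54 genes, had coding clusters in 18, 27, 14 and 11 genes and in all 4 libraries in 7. Between the cytoplasms 6 of 13 genes with enough reads were 4-fold higher in *KRT19* KO cells and 0 lower, with a median log2 ratio of 1.78, beside 30.4%, 4.6% and 1.27 over all genes. Zinc finger genes were the largest group, with a coding cluster in 260 of 506 genes and in 127, 197, 89 and 83 genes by library. Of 81 with enough reads, 30 were higher and 5 lower, with a median of 1.63, and *ZNF714* had 244 and 1795 reads. The medians of both lists lie above that over all genes, which is a description of single libraries.

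Of 25 hnRNP and poly-C binding protein genes, 17, 14, 11 and 9 had a coding cluster by library, 21 in any library and 5 in all 4. Between the cytoplasms 2 of 11 genes with enough reads were higher and 1 lower, with a median of 0.36, beside 30.4%, 4.6% and 1.27 over all genes. *PCBP1* had 21 and 331 reads in the cytoplasm and *PCBP2* 108 and 68. Of 29 cytoskeleton genes, 20, 17, 9 and 9 had a coding cluster by library and 23 in any library. Beside the same values over all genes, 3 of 14 with enough reads were higher and 3 lower, with a median of 0.53. *TUBA1C*, an alpha tubulin, had 219 and 740 reads and *VIM* 94 and 87, while *ACTG1*, among the lower genes with 182 and 0, lies in a stretch held by the parental cytoplasm alone. Of 50 collagen and matrix genes, 19 had a coding cluster, in 5, 10, 8 and 8 genes by library, and *LAMA5*, a laminin chain, had 30, 23, 201 and 60 reads, with the most in the parental nucleus.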

How the data were processed

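Per the study's methods, libraries were split and trimmed with Bcl2fastq and cutadapt, copies of a read were merged, and clusters were called by PARalyzer in PARpipe on hg19. The submitters' processing notes also name hg38. For each cluster the authors deposited raw counts of reads, of unique reads and of reads with T-to-C changes, without normalization. The fraction of reads ending in G, also deposited by the authors, was multiplied by the read count. Other fraction, score and log10 columns were not used.

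Coding clusters were those with the annotation label coding. Shares were given with 95% Wilson intervals. Clusters were placed in canonical transcripts of GENCODE 44 on GRCh37, matched to the files by sequence, with GENCODE coding lengths for 5701 genes matched by symbol. Coding clusters were compared with 3'UTR and intronic clusters by an exact two-sided paired permutation test over the 4 libraries, with Benjamini-Hochberg adjustment over 20 tests. Overlap required 1 nt on the same strand. The overlap calculation and the 4-fold rule were tested on simulated data, and the other calculations were not. RPM values were scaled to all reads in clusters. Depth was 3252800 to 6216226 reads per library.

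Named genes were *KRT19* and *HNRNPK*, the 8 with the most coding clusters, the 8 with the most coding reads, the 5 largest rises and 5 largest falls between the cytoplasmic libraries among genes of at least 50 coding reads, the 8 loci of all 4 libraries with the highest lowest value, and gene lists by count. Members, lists and rules were chosen with earlier results of these data known. Loci on chromosome 8 were not considered for printed sequences. The result of 1 gene list is not reported here. Alternatives covered minimum reads, weighting, mitochondrial clusters, the largest cluster, 1 cluster per gene, overlap, scaling and pseudocount. The stretches held by 1 library were added after the values were seen. Software versions were matplotlib 3.10.9, pysam 0.24.0, scipy 1.17.1, pandas 2.3.3 and numpy 2.4.6 under Python 3.11.15.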

Additional observations from a re-analysis of the deposited data

Results flagged for a closer look

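The coding share of reads, cytoplasm minus nucleus, had opposite signs in the 2 cell lines. The value was -0.0733 percentage points for the parental line and 1.504 points for the KO line. Whether the lines differ was not tested, since each value rests on 2 libraries. Without the mitochondrial genome the values were 0.482 and 3.08 points, of the same sign.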

How the results depend on the processing

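Values are in the order parental cytoplasm, *KRT19* KO cytoplasm, parental nucleus and *KRT19* KO nucleus. Over the other settings tried, 19 values stayed within their counting interval or within 1.5 times for counts, and 49 moved. With clusters of at least 10 reads only, the coding share of clusters was 2.41%, 5.11% and 1.47% in the first 3 libraries, the T-to-C share of reads 57.6%, 52.8%, 58.5% and 49.004%, the C share 31.5%, 33.1%, 33.4% and 35.8%, and the CCC share 46.5%, 51.6%, 52.4% and 53.5%. The overlap with the other cell line was then 47.9%, 30.2%, 24.9% and 26.5%, and that with the other fraction 21.3%, 17.9%, 27.5% and 41.6%. Weighted by reads, the coding share was 2.27%, 5.87%, 2.34% and 4.37%, which put the parental nucleus above the parental cytoplasm. The T-to-C share was 66.8%, 60.3%, 76.1% and 75.4% without the mitochondrial genome and 65.5%, 59.4%, 67.9% and 59.5% without the largest cluster. With 1 cluster per gene, the C share was 29.97% and 32.6% and the CCC share 41.2% and 48.7% in the cytoplasmic libraries. With an overlap of at least 0.5 of the cluster required, the overlap in the first 3 libraries was 27.5%, 17.7% and 15.8% with the other cell line and 10.6%, 10.1% and 18.01% with the other fraction. Scaled to coding reads, 191 genes were 4-fold higher and 137 lower in the *KRT19* KO cytoplasm, and with a minimum of 200 coding reads, which tests fewer genes, 120 and 15. Without the stretches held by 1 library, added after the values were seen, the parental cytoplasm had a C share of 29.1% and an overlap with the other cell line of 30.6%, 39 genes were lower, and 23 other values stayed. The causes of the other moves were not tested. Between conditions, no replicate block could be fitted: No paired analysis was possible because each PAR-CLIP condition has 1 library, and the paired tests of the report set cluster classes against each other within libraries. Thin clusters, with a median of 8 to 10 reads, limit what the overlap can show.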
